A study of Homo sapiens with 9 samples.

Results

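The transcripts described here are those of 10 genes that sense stalled replication forks and broken DNA and hold the cell cycle: ATR, ATRIP, TOPBP1, CLSPN, TIMELESS, CHEK1, WEE1, CDC25A, ATM and CHEK2. They were chosen by symbol from the 59609 genes of the table, and all 10 were among the 16964 genes that passed the filter on low counts. Total RNA came from SUIT2 cells, an established line grown from a human pancreatic cancer. The 9 libraries formed 3 groups of 3, all of the same line: 24 h with human interferon beta at 100 U/mL, 6 h with the same dose, and control, for which the labels give no time. Interferon beta is a type I interferon, and the series asks which transcripts change after each exposure. Whether replicates came from separate cultures is not labelled, and the p-values rest on the spread among these libraries alone, which may be technical.

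ATR is a kinase that is recruited to single-stranded DNA at stalled forks by its partner ATRIP and switched on there by TOPBP1. Claspin, the product of CLSPN, and TIMELESS travel with the fork and help ATR reach its main effector kinase, CHK1, encoded by CHEK1. CHK1 restrains entry into S phase and mitosis by marking the phosphatase CDC25A for destruction, while the kinase WEE1 acts in the same direction by phosphorylating the cyclin-dependent kinases. ATM and its effector CHK2, encoded by CHEK2, form the parallel branch that answers double-strand breaks.

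Totals of estimated counts were 25270387 to 40384407 in the 24 h libraries, 16799278 to 37420457 in the 6 h libraries and 15101734 to 19632741 in the control libraries. Treated libraries thus had the greater mean depth. Counts of the 10 genes in single libraries lay between 142 and 10039. The treatment was plain in the libraries: MX1, an interferon-induced GTPase, averaged 954 ± 30.3 CPM at 24 h, 2019.8 ± 10.6 CPM at 6 h and 12.5 ± 3.31 CPM in control (CPM, read counts scaled to library size with TMM factors, mean ± SD, n = 3 per group). ISG15, an interferon-induced ubiquitin-like protein, averaged 576 ± 22.9 CPM at 24 h, 699.6 ± 79.3 CPM at 6 h and 15.1 ± 1.01 CPM in control. The epithelial markers KRT7, KRT8, KRT18, KRT19, EPCAM, CDH1 and MUC1 were all measured, with a summed level of 5359 to 5484 CPM at 24 h, 5464 to 5771 CPM at 6 h and 4838 to 4902 CPM in control. Summed levels of leukocyte, fibroblast, endothelial and acinar markers stayed at or below 2.40 CPM in every library.

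All changes of the 10 checkpoint transcripts were small next to those values, between a 1.39-fold rise and a fall to 0.754-fold. At 24 h CLSPN, CHEK2, CDC25A, TOPBP1, CHEK1 and TIMELESS were higher than in control and ATR was lower. At 6 h CLSPN, TIMELESS, ATR, ATRIP and CHEK1 were higher and TOPBP1 was lower. ATR and TOPBP1 therefore moved in opposite senses at both times, CLSPN rose at both, and WEE1 passed the test in no comparison. The kinase ATR fell by 0.41 on the log2 scale between 6 h and 24 h (SE 0.046, adjusted p = 1.82e-06 from the edgeR quasi-likelihood fit, adjusted over all tested genes after Benjamini and Hochberg), while its activator TOPBP1 rose by 0.31 (SE 0.031, adjusted p = 5.57e-07). With library size only the difference of ATR was -0.19, where the median of all genes stood at 0.20. These directions are on the TMM scale, and those that turn with another scaling are named with the gene.

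**Figure D1:**
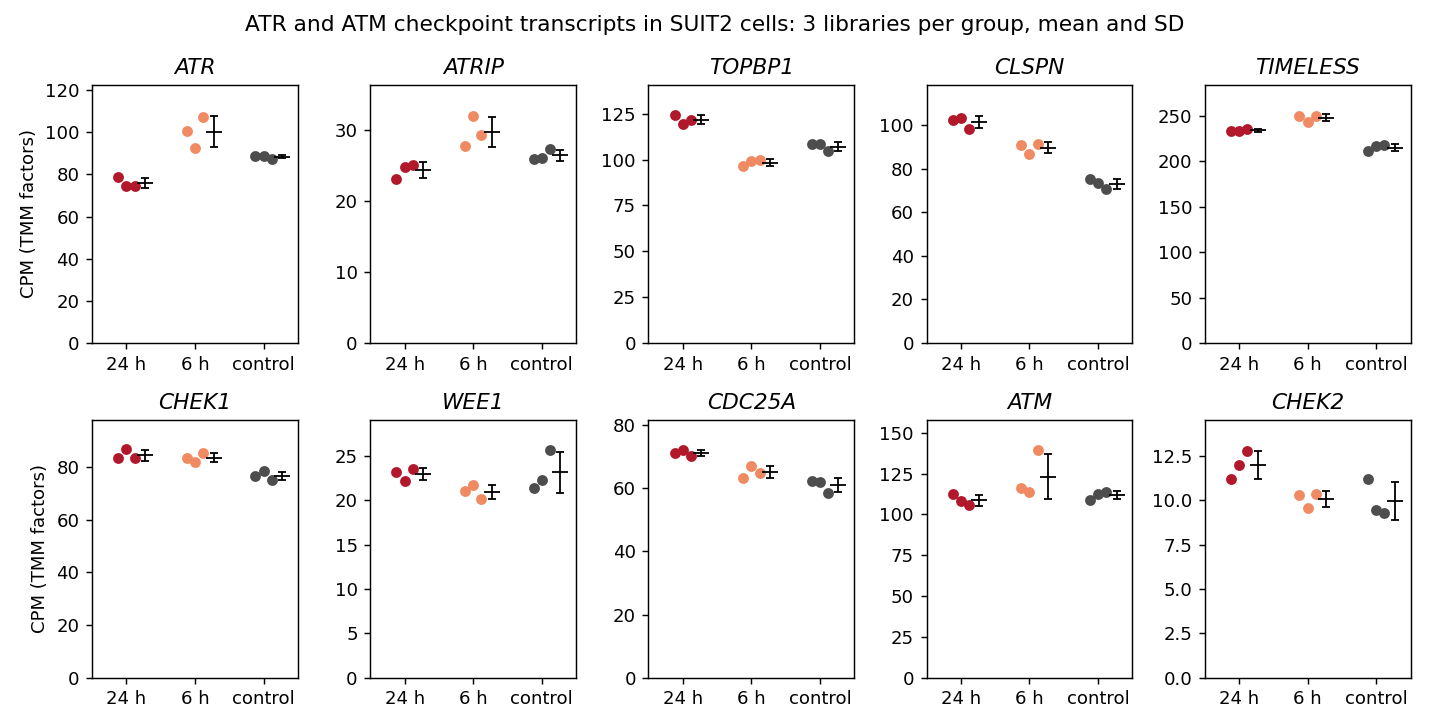
CPM (vertical axes, TMM factors, from 0) of the 10 transcripts in every library, with 24 h, 6 h and control side by side. Points are libraries and bars give the mean ± SD (n = 3). ATR is highest at 6 h and lowest at 24 h, TOPBP1 is lowest at 6 h and highest at 24 h, and CLSPN is higher at both times than in control.

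Promoter windows were available for 9 of the 10 genes, in 13 entries that run from 250 bases before to 50 after an annotated start (RefSeq, GRCh38.p14). WEE1 had none. The windows of CLSPN, TOPBP1 and CDC25A are shown because these transcripts were higher at 24 h than at 6 h and in control and share a motif, and that of ATR because it was lower. Capitals mark letters that match the E2F site in any of its forms TTTCCCGC, TTTGGCGC, TTTCGCGC or TTTGCCGC on either strand. E2F factors are the transcription factors known for driving S phase genes.
CLSPN (chr1:35769929-35770228, minus strand): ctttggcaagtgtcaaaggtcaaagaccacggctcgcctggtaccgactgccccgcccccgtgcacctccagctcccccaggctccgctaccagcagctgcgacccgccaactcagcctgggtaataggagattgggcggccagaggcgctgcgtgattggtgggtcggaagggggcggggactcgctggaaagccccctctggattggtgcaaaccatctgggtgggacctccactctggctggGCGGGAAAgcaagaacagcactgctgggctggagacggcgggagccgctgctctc
TOPBP1 (chr3:133661892-133662191, minus strand): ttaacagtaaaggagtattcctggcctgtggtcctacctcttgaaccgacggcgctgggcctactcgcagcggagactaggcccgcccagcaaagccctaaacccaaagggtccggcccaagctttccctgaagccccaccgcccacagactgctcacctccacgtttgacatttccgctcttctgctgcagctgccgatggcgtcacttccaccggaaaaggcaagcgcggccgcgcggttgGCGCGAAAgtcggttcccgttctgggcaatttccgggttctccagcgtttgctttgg
CDC25A (chr3:48188368-48188667, minus strand): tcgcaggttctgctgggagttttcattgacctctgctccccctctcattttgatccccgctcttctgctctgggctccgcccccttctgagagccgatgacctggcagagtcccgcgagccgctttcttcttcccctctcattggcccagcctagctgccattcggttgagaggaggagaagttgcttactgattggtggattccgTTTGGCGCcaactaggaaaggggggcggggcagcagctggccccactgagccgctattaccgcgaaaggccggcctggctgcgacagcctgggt
ATR (chr3:142578684-142578983, minus strand): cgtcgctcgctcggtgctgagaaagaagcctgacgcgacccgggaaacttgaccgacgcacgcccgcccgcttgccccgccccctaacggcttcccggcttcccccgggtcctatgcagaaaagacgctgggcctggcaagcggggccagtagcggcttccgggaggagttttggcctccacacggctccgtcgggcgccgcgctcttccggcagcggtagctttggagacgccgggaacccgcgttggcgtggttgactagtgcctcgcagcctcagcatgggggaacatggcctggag

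CLSPN held the E2F letters at positions -5 to 2, TOPBP1 at -7 to 0 and CDC25A at -44 to -37, where 0 is the annotated start used for that window. The TOPBP1 window, which ends at 133662191, lies wholly inside the deposited interval of the gene, which runs to 133662381. The letters stood in 3.32% of all 35116 promoter windows, and in no other window of the 10 genes. CHEK2 also passed as higher at 24 h than at 6 h and in control, and its window did not hold the letters. CHEK1 and TIMELESS passed as higher at 24 h than in control, and their windows did not hold them either. The CHEK1 windows begin at 125625974 or later, inside its interval, so they do not cover its deposited start at 125625665. Whether E2F factors bear on these transcripts was not tested. For comparison, the CHR letters TTTGAA or TTCGAA, a mitotic promoter element, stood in 16.4% of all windows and in that of ATM alone among these genes. The interferon-stimulated response element, searched as GAAA repeated after any 2 bases, stood in 3.57% of all windows and in none of the 13 entries. A match is a description of letters in the window and not a measured binding site.

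Levels of different genes can be set side by side only per length. In control, CPM per kilobase of annotated exons (GENCODE 29, all exons of a gene joined) was 37.0 ± 0.587 for TIMELESS, far above the rest. CDC25A at 14.8 ± 0.542 and TOPBP1 at 14.7 ± 0.315 came next and did not differ beyond their spread. They were followed by CLSPN at 13.5 ± 0.438, CHEK1 at 11.7 ± 0.242 and ATR at 7.07 ± 0.0588 CPM per kilobase. ATRIP at 4.86 ± 0.148 and ATM at 4.66 ± 0.101 had overlapping spreads, and so did the lowest pair, WEE1 at 2.504 ± 0.245 and CHEK2 at 2.22 ± 0.239. Genes with many alternative exons, such as ATM, come out low on this scale. At 24 h CLSPN, at 18.8 ± 0.493 CPM per kilobase, stood above CDC25A at 17.3 ± 0.244 and TOPBP1 at 16.7 ± 0.329.

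The sensor kinase and its partner come first. ATR (chromosome 3, 142449007 to 142578734 on hg38, minus strand) had 78.6, 74.4 and 74.4 CPM at 24 h, 100.8, 92.7 and 107 CPM at 6 h, and 88.7, 89.0 and 87.6 CPM in control. The 3 groups did not overlap, with every 24 h library below and every 6 h library above the controls. Against control the log2 fold change of ATR was 0.19 at 6 h (SE 0.048, adjusted p = 0.00691) and -0.22 at 24 h (SE 0.047, adjusted p = 0.00117), and the 24 h value stood at 0.21 in the authors' normalized table, where the median of all genes was 0.37. ATRIP, which binds RPA-coated single-stranded DNA (chromosome 3, 48446710 to 48467646, plus strand), had 23.0, 24.8 and 25.1 CPM at 24 h, 27.7, 31.98 and 29.3 CPM at 6 h, and 25.8, 26.0 and 27.3 CPM in control. It was lower at 24 h than at 6 h, with -0.29 (SE 0.056, adjusted p = 0.000327). With library size only this was -0.078, without passing, where the median of all genes was 0.20. ATRIP passed as higher at 6 h against control, with 0.17 (SE 0.061, adjusted p = 0.0386), and did not pass at 24 h, with -0.12 (SE 0.059, adjusted p = 0.106). The 6 h call of ATRIP ended with DESeq2 (adjusted p = 0.118) and when control library 1 (0.115), control library 2 (0.105) or 6 h library 2 (0.147) was left out.

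A neighbour bears on ATRIP. TREX1, which encodes an exonuclease that degrades cytosolic DNA, lies at 48465811 to 48467646 on the same strand, and all of its 1515 exonic bases are also annotated as exon of ATRIP. TREX1 had 11.1, 10.8 and 10.9 CPM at 24 h, 19.5, 18.9 and 18.6 CPM at 6 h, and 3.42, 4.58 and 3.19 CPM in control. It rose by 1.53 at 24 h (SE 0.11, adjusted p = 9.52e-09) and by 2.32 at 6 h (SE 0.10, adjusted p = 4.36e-11). Summed over groups TREX1 had 1168 estimated counts at 24 h, 1351 at 6 h and 196.8 in control. The sources used here do not say how reads in the shared exons were divided, and the part of TREX1 reads in the ATRIP values was not tested.

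**Figure D2:**
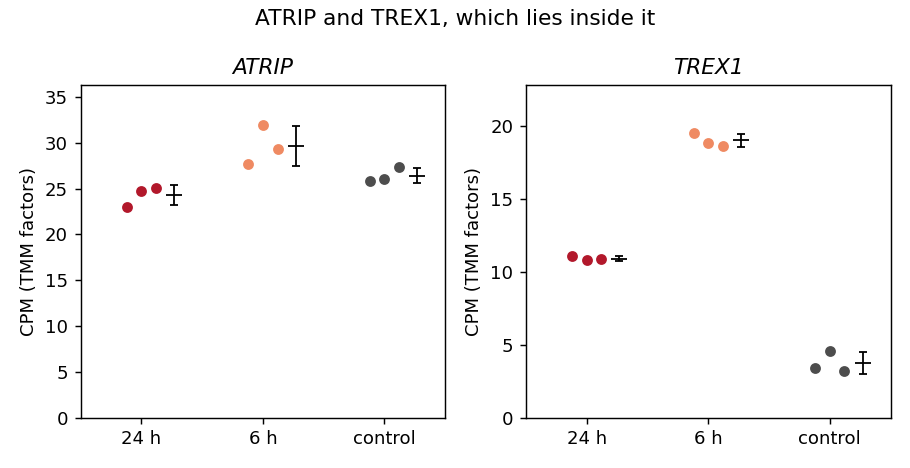
CPM (vertical axes, TMM factors, from 0) of ATRIP and of TREX1, which lies inside its annotated exons, in every library at 24 h, at 6 h and in control. Points are libraries and bars give the mean ± SD (n = 3). Both were highest at 6 h, TREX1 with 18.6 to 19.5 CPM against 3.19 to 4.58 CPM in control.

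Next come the activator and the mediators at the fork. TOPBP1 (chromosome 3, 133598175 to 133662381, minus strand) had 124, 119.5 and 122 CPM at 24 h, 96.5, 99.0 and 99.7 CPM at 6 h, and 108, 109 and 105 CPM in control. The groups were separate, in the reverse order of ATR. TOPBP1 stood at -0.12 at 6 h (SE 0.033, adjusted p = 0.00937) and 0.18 at 24 h (SE 0.031, adjusted p = 0.000159). At 6 h it was 0.043 in the authors' normalized table, where the median of all genes was 0.13. The 6 h call of TOPBP1 ended without control library 2 (adjusted p = 0.0568) and without the low-count filter (0.0604). CLSPN (chromosome 1, 35720218 to 35769979, minus strand) had 102.5, 103.5 and 98.5 CPM at 24 h, 91.0, 87.0 and 91.3 CPM at 6 h, and 75.2, 73.5 and 70.5 CPM in control. Each group of CLSPN lay wholly above the next. It showed the largest rise of the 10 against control at both times, by 0.47 at 24 h (SE 0.037, adjusted p = 3.88e-08) and by 0.30 at 6 h (SE 0.038, adjusted p = 1.80e-05), and also rose between the times, by 0.18 (SE 0.035, adjusted p = 0.000516). TIMELESS (chromosome 12, 56416363 to 56449427, minus strand) had 233, 233 and 236 CPM at 24 h, 249.7, 243 and 250.4 CPM at 6 h, and 211, 217 and 218 CPM in control. It was higher than control at both times, by 0.12 at 24 h (SE 0.028, adjusted p = 0.00185) and 0.20 at 6 h (SE 0.028, adjusted p = 3.37e-05). Between the times TIMELESS fell by 0.083 (SE 0.027, adjusted p = 0.0170), a sign that turned to 0.13 with library size only, where the median of all genes was 0.20, and to 0.19 in the authors' table, where it was 0.22. That call also ended without 24 h library 1 (adjusted p = 0.0509) or 24 h library 2 (0.0514).

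The effector kinases and their target follow. CHEK1 (chromosome 11, 125625665 to 125676256, plus strand) had 83.3, 86.9 and 83.2 CPM at 24 h, 83.3, 81.9 and 85.2 CPM at 6 h, and 76.6, 78.3 and 75.1 CPM in control. Both treated groups lay above all controls and overlapped each other. CHEK1 was higher by 0.14 at 24 h (SE 0.035, adjusted p = 0.00382) and by 0.12 at 6 h (SE 0.036, adjusted p = 0.0144). The 6 h value turned to -0.016 with library size only, where the median of all genes was -0.14. The difference of CHEK1 between the times was 0.014 (SE 0.033, adjusted p = 0.743). WEE1 (chromosome 11, 9573670 to 9593458, plus strand) had 23.2, 22.2 and 23.5 CPM at 24 h, 21.0, 21.7 and 20.1 CPM at 6 h, and 21.4, 22.3 and 25.7 CPM in control. Its controls spanned the widest range and overlapped both treated groups. WEE1 did not pass at 24 h, with -0.0046 (SE 0.064), at 6 h, with -0.15 (SE 0.067), or between the times, with 0.14 (SE 0.062). CDC25A (chromosome 3, 48157146 to 48188418, minus strand) had 71.3, 72.3 and 70.3 CPM at 24 h, 63.4, 67.1 and 65.0 CPM at 6 h, and 62.3, 62.1 and 58.4 CPM in control. The 24 h libraries lay above all others. CDC25A rose by 0.22 at 24 h (SE 0.038, adjusted p = 0.000140) and by 0.13 between the times (SE 0.036, adjusted p = 0.00719). At 6 h it had 0.097 (SE 0.039, adjusted p = 0.0725), which turned to -0.043 with library size only, where the median of all genes was -0.14.

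Of the double-strand break branch, ATM (chromosome 11, 108222832 to 108369103, plus strand) had 112, 108 and 105.5 CPM at 24 h, 116, 114 and 139 CPM at 6 h, and 109, 112 and 114 CPM in control. The highest value came from 6 h library 3, which also held the highest ATR value. Against control ATM did not pass at 24 h, with -0.040 (SE 0.060), or at 6 h, with 0.15 (SE 0.061, adjusted p = 0.0741), and without 6 h library 3 the 6 h value was 0.041. At 6 h ATM passed without 6 h library 1 (0.19, adjusted p = 0.0345), without 6 h library 2 (0.21, 0.0139) and without the low-count filter (0.17, 0.000200). It passed as lower at 24 h than at 6 h, with -0.19 (SE 0.058, adjusted p = 0.0115), but without 6 h library 3 the value was -0.082 (adjusted p = 0.0560). The sign turned to 0.027 with library size only, where the median of all genes was 0.20, and to 0.096 in the authors' table, where it was 0.22. ATR kept its 6 h call without that library, at 0.13 (adjusted p = 0.0297). CHEK2 (chromosome 22, 28687743 to 28742423, minus strand) had 11.2, 11.96 and 12.8 CPM at 24 h, 10.3, 9.57 and 10.3 CPM at 6 h, and 11.2, 9.46 and 9.26 CPM in control. The lowest 24 h library and the highest control did not separate. At 6 h CHEK2 stood at 0.016 (SE 0.094), which turned to -0.12 with library size only, where the median of all genes was -0.14. It passed as higher at 24 h, with 0.26 against control (SE 0.088, adjusted p = 0.0217) and 0.25 against 6 h (SE 0.084, adjusted p = 0.0205). The first of these calls ended with DESeq2 (adjusted p = 0.0618), without control library 2 (0.0983) or 3 (0.0878), or without 24 h library 3 (0.0902). The second ended with DESeq2 (0.0585), without 6 h library 2 (0.0774) or without 24 h library 3 (0.0968). HSCB, a gene on the other strand with 992 counts over all libraries, shares 301 exonic bases with CHEK2, which had 2514. The 5 CHEK2 pseudogenes named in the table had at most 4.75 estimated counts each over all libraries. For the other 8 genes no overlapping gene reached 10% of their summed count.

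**Figure D3:**
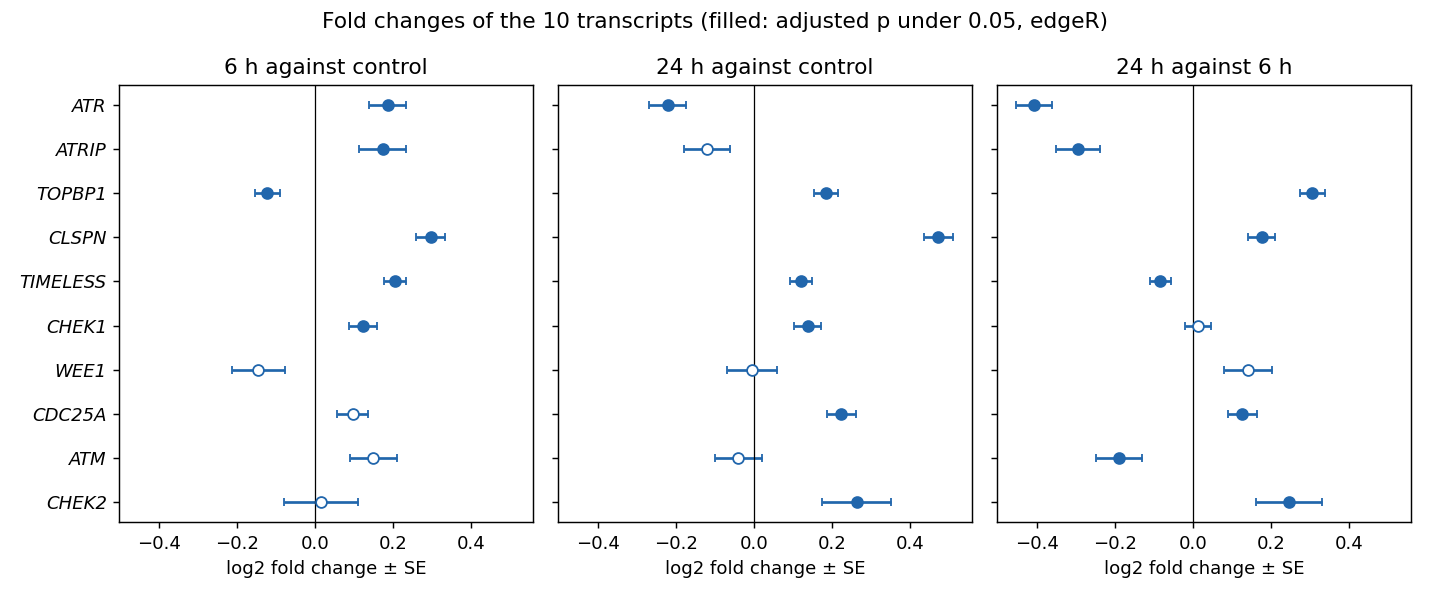
Log2 fold changes ± SE (horizontal axes, TMM scale) of the 10 transcripts at 6 h against control, at 24 h against control and at 24 h against 6 h. Filled points have an adjusted p under 0.05 by edgeR, open points do not. CLSPN is filled and right of 0 in all 3 panels, and ATR and TOPBP1 lie on opposite sides of 0 in each.

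Counted together, 5 of the 10 transcripts were higher and 1 was lower at 6 h against control, where 32.9% of all tested genes passed, 17.5% as higher and 15.4% as lower. At 24 h against control 6 were higher and 1 lower, with 50.0% of all genes called, 24.7% higher and 25.3% lower. Between the times 4 were higher at 24 h and 4 lower, with 57.2% of all genes called, 26.6% higher and 30.6% lower. The median log2 fold change of the 10 was 0.14 at 6 h, 0.13 at 24 h and 0.071 between the times, against -0.0053, 0.0048 and -0.019 over all tested genes. The 3 comparisons are not independent of each other. The first 2 share their control libraries, and the third is the difference between those 2. At 6 h the number of the 10 called was 4 without control library 2, where 4735 of 17384 genes passed. It was 6 with all libraries, where 5576 of 16964 passed. In the authors' normalized table with a pseudocount of 1 it was 0, and 1842 of 16964 genes passed. With library size only it was 3, while 7861 of 16964 genes passed. The calls of ATR, ATRIP, CHEK1 and TIMELESS ended in that setting and that of WEE1 was gained. In the authors' table the fall of ATR and of ATRIP between the times did not pass either (-0.13 and -0.013, adjusted p = 0.585 and 0.961 by limma).

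Over the 9 libraries, CLSPN and CDC25A had a Pearson correlation of 0.92 in log2 CPM, CLSPN and CHEK1 one of 0.92, and ATR and TOPBP1 one of -0.91. ATR and ATM stood at 0.80 and ATR and ATRIP at 0.72. These values describe 9 points that fall into 3 groups and share depth and treatment. Among 11487 other genes with a mean of at least 5 CPM, the courses most like CHEK1 were those of GCA (r = 0.97), DNAJC19 (0.97) and MMADHC (0.97). The courses most like ATR were those of SEPTIN7 (0.98), LARS1 (0.98) and PPP1R10 (0.98). SEPTIN7 averaged 150.2 ± 4.28 CPM at 24 h, 175 ± 7.92 CPM at 6 h and 163 ± 2.86 CPM in control.

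Around these genes, lists of the other parts of the checkpoint were counted in the same fit. Their counts stand against 50.0% of all tested genes called at 24 h and 32.9% at 6 h. Within these lists the change furthest from 0 was that of FBXO6, among genes of turnover and reversal of checkpoint signalling. FBXO6, an F-box protein reported to direct CHK1 to degradation, had 6.79, 7.07 and 8.23 CPM at 24 h, 12.2, 13.7 and 13.2 CPM at 6 h, and 3.12, 2.62 and 2.67 CPM in control. It rose by 1.39 at 24 h (SE 0.12, adjusted p = 1.62e-07) and by 2.22 at 6 h (SE 0.12, adjusted p = 5.93e-10). PLK1, the mitotic kinase that ends the checkpoint by targeting claspin and WEE1, fell by 1.06 at 24 h (SE 0.031, adjusted p = 2.46e-13), to 163 ± 5.18 CPM against 342 ± 5.98 CPM in control. The ubiquitin ligase scaffold CUL4A fell by 0.42 at 24 h (SE 0.031). At 6 h USP7, a deubiquitinase, and BTRC, the F-box protein that recognises CDC25A and claspin, fell by 0.24 and 0.21. Of the 8 genes of this list 3 were higher and 5 lower at 24 h (50.0% of all genes called), and 2 were higher and 2 lower at 6 h (32.9%).

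The 9-1-1 clamp is the ring that carries TOPBP1 to ATR. Of its 6 tested genes 1 was higher and 2 were lower at 24 h, and 1 was higher and 1 lower at 6 h. RAD9A, a subunit of the ring, averaged 18.2 ± 1.17 CPM at 24 h, 29.1 ± 1.02 CPM at 6 h and 13.8 ± 0.0878 CPM in control. It rose by 0.40 at 24 h (SE 0.066, adjusted p = 0.000125) and by 1.07 at 6 h (SE 0.065, adjusted p = 2.60e-09), although PPP1CA, POLD4 and CLCF1 overlap its interval on the other strand. They had 59342, 17878 and 5113 estimated counts over all libraries, against 4706 for RAD9A. Strand settings are not given, and the part of such reads in the RAD9A values was not tested. RAD17, which loads the ring, fell by 0.27 at 24 h and 0.28 at 6 h, and RHNO1, which joins the ring to TOPBP1, fell by 0.14 at 24 h. Of RPA and ETAA1 genes 1 of 5 was higher and 0 were lower at 24 h, and 0 were higher and 2 lower at 6 h. ETAA1, the other direct activator of ATR, stood at -0.29 at 6 h (SE 0.080, adjusted p = 0.0110) and 0.081 at 24 h (SE 0.074, adjusted p = 0.390). Like TOPBP1 it was thus lower at 6 h, and it rose by 0.37 between the times (SE 0.073, adjusted p = 0.000470). RPA2, a subunit of the single-strand binding complex, fell by 0.18 at 6 h, and the large subunit RPA1 rose by 0.17 at 24 h.

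Among genes of fork protection and remodelling 2 of 5 were higher and 0 lower at each time, a share between the 32.9% of all genes called at 6 h and the 50.0% at 24 h. TIPIN, the partner of TIMELESS, rose by 0.20 at 24 h (SE 0.077, adjusted p = 0.0395) and by 0.40 at 6 h (SE 0.079, adjusted p = 0.00101), at both times in the same direction as TIMELESS. SMARCAL1, a fork remodeller, rose by 0.23 at 6 h and fell by 0.40 between the times, and WDHD1, a replisome scaffold, rose by 0.42 at 24 h. In the double-strand break list 3 of 11 were higher and 3 lower at 24 h, close to the 50.0% of all genes called, and 1 was higher and 1 lower at 6 h, below the 32.9%. NBN, the subunit of the MRN complex that recruits ATM, averaged 136 ± 2.01 CPM at 24 h, 252 ± 16.0 CPM at 6 h and 127 ± 3.23 CPM in control, a rise of 0.99 at 6 h (SE 0.042, adjusted p = 2.78e-11). DECR1 overlaps NBN on the other strand, with 10578 estimated counts over all libraries against 39446 for NBN. ATMIN, a cofactor of ATM, fell by 0.14 at 6 h. The partners of NBN in the MRN complex, MRE11 and RAD50, stood at -0.14 and -0.072 at 6 h without passing. At 24 h PRKDC, the kinase of end joining, fell by 0.69, MDC1, a scaffold at breaks, fell by 0.48, and the ubiquitin ligase RNF168 rose by 0.53. Of the 5 co-chaperones that stabilise ATR and ATM, 1 was higher and 3 lower at 24 h and 0 were higher and 1 lower at 6 h. TTI1 rose by 0.37 at 24 h, TELO2 fell by 0.28, RUVBL2 fell by 0.18 and TTI2 fell by 0.25 at 6 h.

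The cyclin-dependent kinases are the point where CHK1 and WEE1 act. Of 9 genes of the CDK1 and CDK2 switch 3 were higher and 4 lower at 24 h, 2 did not pass, and 1 was higher and 1 lower at 6 h. The mitotic phosphatase CDC25B fell by 1.09 at 24 h (SE 0.030, adjusted p = 1.09e-13), to 111 ± 0.923 CPM against 238 ± 1.88 CPM in control, whereas its relative CDC25A rose. The cyclin CCNE2 rose by 1.14 (SE 0.072, adjusted p = 3.16e-09), to 28.2 ± 0.308 CPM against 12.7 ± 1.53 CPM in control. The mitotic cyclin CCNB1 fell by 0.85 at 24 h. At 6 h CCNE1 fell by 0.41 and CDK2 rose by 0.13. Among 7 genes of origin firing 3 were higher and 2 lower at 24 h, MCM10 and CDC45 rising by 0.46 and 0.27 and TICRR falling by 0.24, and 0 were higher and 2 lower at 6 h, CDC7 and RECQL4 falling by 0.17 and 0.13.

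Markers of cell cycle phase also changed at 24 h, where 24.7% of all tested genes passed as higher and 25.3% as lower. Of the 10 checkpoint genes 6 were higher and 1 was lower at that time. Of 10 S phase markers 8 were higher and 1 lower at 24 h, with a summed level of 1976 to 2004 CPM against 1464 to 1492 CPM in control and a median log2 fold change of 0.65, PCNA, MCM6 and MCM5 rising by 0.73, 0.72 and 0.72. All 9 proliferation and mitosis markers were lower at 24 h, with 2528 to 2545 CPM against 3773 to 3939 CPM in control and a median of -0.60, UBE2C, TOP2A and CENPF falling by 0.95, 0.78 and 0.68. At 6 h the same sums were 1444 to 1489 CPM for S phase and 3640 to 4006 CPM for mitosis, both overlapping control. Single markers passed at 6 h, 1 of 10 S phase markers as higher and 2 as lower, and 1 of 9 mitosis markers as higher and 4 as lower. Of all tested genes 17.5% passed as higher and 15.4% as lower at 6 h. PCNA rose by 0.14 at 6 h, while UHRF1 and MCM2 fell by 0.29 and 0.18. The mitotic checkpoint kinase BUB1 rose by 0.54 at 6 h (SE 0.035, adjusted p = 5.74e-09), while AURKA and CENPF fell by 0.18 and 0.16. In bulk RNA a different share of cells in a phase and a different amount of RNA per cell cannot be told apart, and the part of phase in the values of the 10 genes was not tested.

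**Figure D4:**
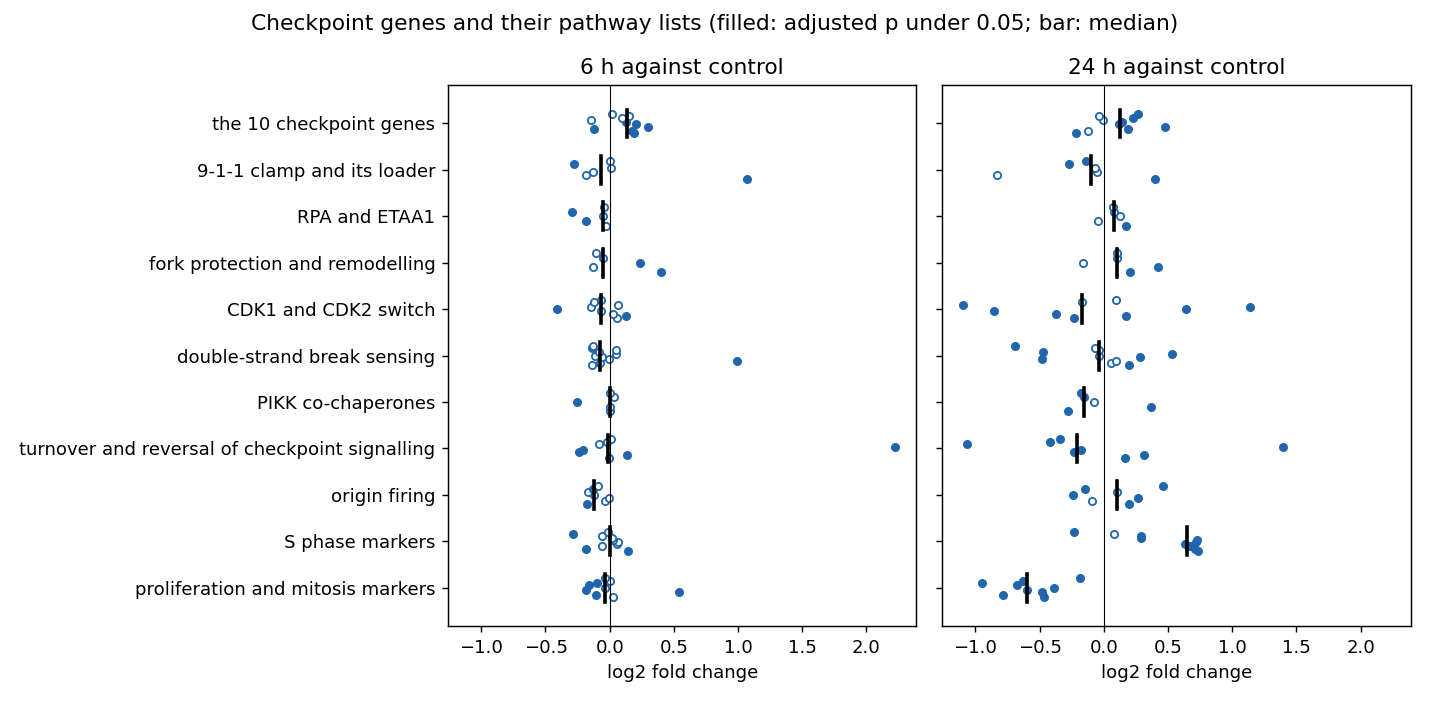
Log2 fold changes (horizontal axes, TMM scale) at 6 h and at 24 h against control of the 10 checkpoint genes and of the lists around them. Each point is a tested gene, filled where the adjusted p is under 0.05 by edgeR, and the black bar is the list's median. At 24 h the S phase markers centre on 0.65, the mitosis markers on -0.60 and the 10 checkpoint genes on 0.13.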

How the data were processed

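RNA sequencing was done on 9 SUIT2 libraries on an Illumina HiSeq, per the labels' protocols. STAR 2.7.8a and Partek with hg38 are named per the submitters' processing notes. Annotation release, counting and strand settings: not given in the sources used here. Estimated counts per gene, which need not be whole and were rounded here, were deposited by the authors, with a TMM-normalized signal table made after 0.0001 was added, per the file headers and names. Levels are CPM from the rounded counts. edgeR 4.0.16 (R 4.3.3, limma 3.58.1) tested all genes by quasi-likelihood in 1 model of 3 groups with 6 residual degrees of freedom. The filter was a minimum count of 10 and total of 15, and calls needed an adjusted p under 0.05. SE is the absolute log2 fold change over the square root of F. The test was also run on simulated data, and no result here rests on that run. The members and lists were chosen with earlier results of these data known. All 10 genes are named, of each checkpoint or phase list up to 3 called genes with the largest change against control, the treatment check, overlapping genes with at least 10% of a member's count, and 3 genes most like CHEK1 and ATR in course. Alternatives were DESeq2 1.42.0, limma-voom, other scalings and filters, fits of the compared groups alone, a block for replicate number, omission of each library, and limma on the log2 of the deposited table with a pseudocount of 1 or 0.1. Replicates of a group differed beyond sampling noise in every pair (mean chi-square per gene 1.59 to 5.58). Coordinates are those of the deposited tables. Python 3.11.15 drew the plots.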

Additional observations from a re-analysis of the deposited data

Results flagged for a closer look

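Levels at 24 h and 6 h of interferon beta differed in the direct test for 8 of the 10 genes, where 57.2% of all tested genes did. The single control group has no stated time, so time in culture and length of exposure cannot be told apart. At 24 h against 6 h, on the log2 scale, ATR stood at -0.41 (adjusted p = 1.82e-06 by edgeR), ATRIP at -0.29 (0.000327), ATM at -0.19 (0.0115) and TIMELESS at -0.083 (0.0170). TOPBP1 stood at 0.31 (5.57e-07), CHEK2 at 0.25 (0.0205), CLSPN at 0.18 (0.000516) and CDC25A at 0.13 (0.00719). All 8 changes were under 1.5-fold. With library size only ATR stood at -0.19 (adjusted p = 0.00164) and ATRIP at -0.078 (0.252), while TIMELESS and ATM turned to 0.13 and 0.027. In the authors' table ATR and ATRIP stood at -0.13 and -0.013 and did not pass.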

How the results depend on the processing

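Of 570 repeats of the fold changes of the 10 genes under other settings, 486 kept direction and side of the threshold, 38 lost a call, 11 gained one and 35 changed sign. The repeats are not independent. They include fits without a library of the group that was not compared, which can change little, and the authors' table with each pseudocount. The cause was not tested. Correlations of same-numbered deviations were -0.061 to 0.020, which with 3 libraries per group cannot show whether the replicate numbers pair the libraries. The replicate block called 5149, 8133 and 9393 genes (6 h, 24 h, between the times) and the same numbers of members, 6, 7 and 8. Leaving out each library gave 4722 to 5489, 7497 to 8981 and 8847 to 9739 genes, and 4 to 8, 6 to 7 and 7 to 9 members. With library size only the median of all genes was -0.14, 0.082 and 0.20 in the 3 comparisons. In that setting 7861 of 16964 genes and 3 members were called at 6 h. CHEK1, CHEK2 and CDC25A turned to -0.016, -0.12 and -0.043 at 6 h, WEE1 and ATM to 0.073 and 0.038 at 24 h, and TIMELESS and ATM to 0.13 and 0.027 between the times. Relative to the median of all genes, CHEK1, CHEK2 and CDC25A stood at 0.13, 0.021 and 0.10 at 6 h in this setting and with TMM alike. On that scale TIMELESS and ATM stood at -0.064 and -0.17 between the times in both, and ATM at -0.044 at 24 h. WEE1 at 24 h was -0.0092 with library size only and -0.0094 with TMM. Called genes were higher in 21.2%, 64.1% and 76.9%, against 53.2%, 49.5% and 46.6% with TMM. In the authors' table with a pseudocount of 1 the medians were 0.13, 0.37 and 0.22, the called genes 1842 at 6 h and 5855 between the times, and the members 0 and 4, with 88.3%, 96.5% and 83.5% higher. WEE1 and TOPBP1 turned to 0.026 and 0.043 at 6 h, ATR, ATRIP, WEE1 and ATM to 0.21, 0.31, 0.41 and 0.39 at 24 h, and TIMELESS and ATM to 0.19 and 0.096 between the times. With a pseudocount of 0.1 the counts were 1406 and 4827 genes and 0 and 2 members, and the same turned to 0.026 and 0.043, to 0.22, 0.32, 0.43 and 0.40, and to 0.19 and 0.097. The sums of the authors' table were 1085360 to 1113630 at 24 h, 845104 to 1260040 at 6 h and 813335 to 935017 in control. Relative to the median of all genes ATR at 24 h was -0.23 with library size only and -0.16 in the authors' table, and CLSPN 0.47 and 0.53. WEE1 at 24 h, near 0, turned to 9.7e-05 with DESeq2, 0.0020 with limma-voom, 0.0026 with median-of-ratios factors, 0.016 without the filter and 0.0035 with a minimum count of 30. Leaving out libraries moved it from -0.056 to 0.074, CHEK2 at 6 h from -0.023 to 0.11 and CHEK1 between the times from -0.0060 to 0.030. WEE1 passed between the times with median-of-ratios factors (adjusted p = 0.0494), a minimum count of 30 (0.0453), 2 groups per fit (0.0202), library size only (0.000124) or without control library 3 (0.0382). TIMELESS between the times did not pass with 2 groups per fit (0.118) or without the filter (0.0691), and CDC25A passed at 6 h without 6 h library 1 (0.0494).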
